A study of Mus musculus with 6 samples.

Results

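The genes described here changed with leukemia in 1 sorted gate of spleen cells, the Ly6chiF4/80lo gate, and either stayed near their normal level or went the other way in both Ly6clo gates. They were chosen by a difference of differences. The change from normal to T-ALL was taken in each gate as log2(FPKM + 1), where FPKM is fragments per kilobase of transcript, scaled to the library's depth. The mean change of the Ly6cloF4/80lo and Ly6cloF4/80hi gates was then subtracted from the change in Ly6chiF4/80lo, and the result is called the gate difference below. Of 16058 genes in the files, 9537 reached 5 FPKM in at least 1 of the 6 libraries and were considered. Of these, 111 met the rule. A gene was called Ly6chi-only when it moved by at least 1 (2-fold) in the Ly6chi gate and by less than 0.5 in each Ly6clo gate, with a gate difference of at least 1 in size. It was called opposite when it moved by at least 1 in the Ly6chi gate and by at least 0.5 the other way in each Ly6clo gate.

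The 6 libraries came from the spleen of C57BL/6 mice aged 6 to 8 weeks, 1 library per gate and state. Leukemic mice had received 1000000 GFP+ leukemia cells each, with no irradiation, and developed T-cell acute lymphoblastic leukemia (T-ALL) with a survival of 35 to 40 days. Their cells were sorted on day 15, and normal cells on day 0. All 6 populations are labelled as macrophages, and the GFP+ cells were isolated from mice that already had leukemia. The sources used here do not say how that leukemia was made, or whether the gates of a state came from the same mice, separate mice or pools. With 1 library per gate and state there was no replicate, so every difference below is a description of these libraries, without a test or an error between animals.

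Ly6C is a small surface protein carried at a high level by classical monocytes, the cells that leave the marrow for inflamed tissue, and it is lost as they turn into patrolling monocytes. Neutrophils and plasma cells can carry it too. F4/80, the product of Adgre1, is highest on resident macrophages such as those of the splenic red pulp. Neutrophils load their granules in waves while they mature in the marrow, first azurophil granules, then secondary granules with lactoferrin and cathelicidin, then gelatinase granules, so granule transcripts mark immature stages more than mature ones.

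The genes of the sorted marker proteins matched the gate labels in both states. Ly6c2, which encodes Ly6C, was at 482 FPKM in normal and 1405 FPKM in T-ALL Ly6chiF4/80lo, and between 11.8 and 21.4 FPKM in the 4 Ly6clo libraries. Adgre1 stood at 529 FPKM in normal Ly6cloF4/80hi, at 234 FPKM in its leukemic partner and between 47.3 and 86.7 FPKM in the other 4 libraries. Beside the label of macrophage, genes listed for other cell types had high summed levels in every gate. For 16 B cell genes the sums were 5269 FPKM in normal and 3546 FPKM in T-ALL Ly6cloF4/80lo, and 2207 and 1730 FPKM in the Ly6chi gate. For 19 erythroid genes they were 4585 and 37413 FPKM in Ly6cloF4/80hi. In the Ly6chi gate the summed level of 18 neutrophil granule and calprotectin genes was 13817 FPKM in normal and 45978 FPKM in T-ALL. S100a8 held 5836 and 21584 FPKM of these sums and S100a9 2653 and 10296 FPKM, and monocytes carry both too. The sums for 17 classical monocyte genes were 3938 and 5200 FPKM. Those for 18 patrolling monocyte genes, 3497 and 2238 FPKM, were highest in the Ly6chi gate in both states. In Ly6cloF4/80lo they were 1558.5 and 1838 FPKM and in Ly6cloF4/80hi 1619 and 949 FPKM. A bulk library cannot tell fewer cells of a type from less RNA per cell, and this holds for every value below. Depth recovered from the spacing of the values was 6650000 to 8600000 fragments per library, lowest in T-ALL Ly6chiF4/80lo, and each library listed 14225 to 14628 genes. The counting error of the gate difference at that depth had a median of 0.21 over the 109 members with an annotated length (range 0.065 to 0.67), and the gate difference was over 2 counting errors from 0 in each of the 109. Members were chosen by that same difference, so this comparison carries no evidence about them. The error covers counting only, and not the assignment of reads between near-identical genes.

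Over all 9537 genes the gate difference had a median of -0.09, and 41.6% of genes lay above 0. It was at least 1 in 228 genes (2.39%) and at most -1 in 422 genes (4.42%), so 35.1% of these 650 were on the higher side. After median-ratio rescaling of the libraries, which raised the median over all genes by 0.107, that share was 47.4%. Most of the 650 were no members. In 183 of them the Ly6chi gate stayed near its normal level while both Ly6clo gates moved, and 356 had other combinations, such as a move of all gates in 1 direction by unequal amounts. The 111 members were 46 Ly6chi-only genes with a higher level in T-ALL (0.482% of the 9537), 49 Ly6chi-only genes with a lower level (0.514%), 9 opposite genes that were higher in the Ly6chi gate (0.0944%) and 7 opposite genes that were lower there (0.0734%). The shares describe how the rule divides the genes and carry no evidence, since the rule used these same changes. The rule applied to each Ly6clo gate in turn gave 27 genes for Ly6cloF4/80lo and 120 for Ly6cloF4/80hi.

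**Figure D1:**
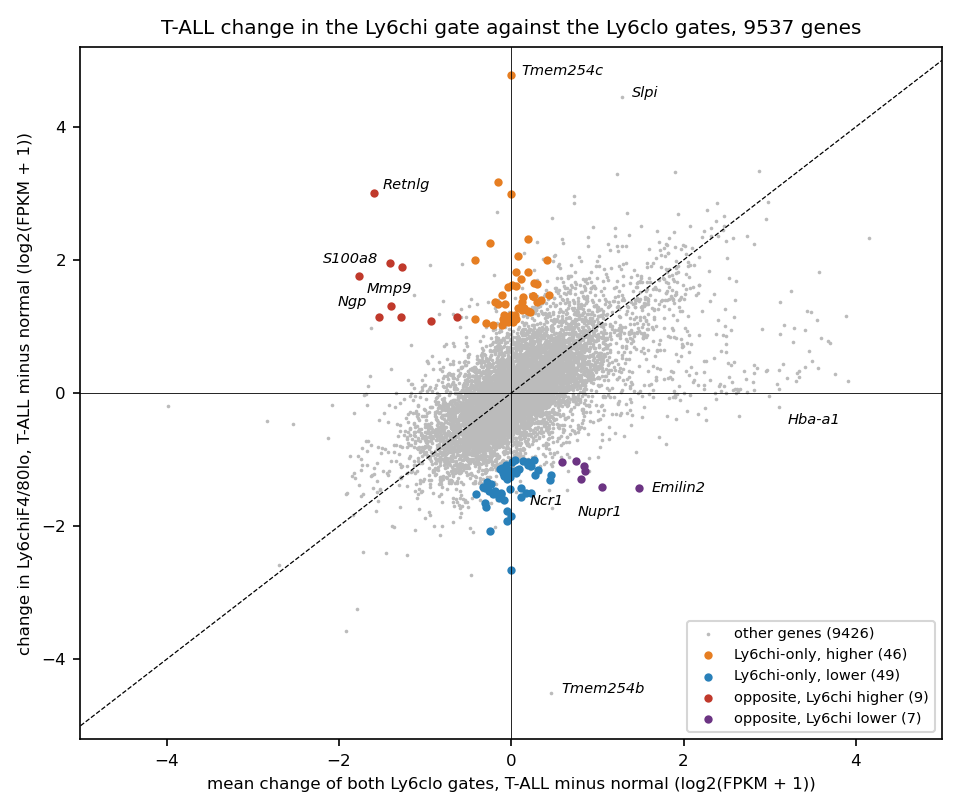
Each point is 1 of 9537 genes. The horizontal axis is the mean T-ALL minus normal change of both Ly6clo gates and the vertical axis the change in Ly6chiF4/80lo, both in log2(FPKM + 1), with 1 library per gate and state. The dashed line marks equal change. The 46 and 49 Ly6chi-only genes form vertical bands near 0, and the 9 and 7 opposite genes sit in the upper left and lower right, with Retnlg at a gate difference of 4.60 and Emilin2 at -2.91.

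The 9 opposite genes that were higher in the Ly6chi gate included 7 of the neutrophil granule and calprotectin list and Chil3, which is in the classical monocyte list. Asprv1 is in no list. Retnlg (Entrez 245195), a resistin-like secreted protein of neutrophils and monocytes, went from 28.2 FPKM in normal to 234 FPKM in T-ALL in Ly6chiF4/80lo. In Ly6cloF4/80lo it went from 7.64 to 0.80 FPKM, and in Ly6cloF4/80hi from 8.82 to 4.18 FPKM. The 3 normal libraries thus lay within the range of 7.64 to 28.2 FPKM, and T-ALL spread them from 0.80 to 234 FPKM. Its level was 8.27-fold higher in the Ly6chi gate, and its gate difference of 4.60 was the highest of the 16 opposite genes.

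S100a8 (Entrez 20201) and S100a9 (Entrez 20202) encode the 2 chains of calprotectin, the abundant calcium- and zinc-binding protein of the neutrophil and monocyte cytosol. S100a8 went from 5836 to 21584 FPKM in Ly6chiF4/80lo, from 166 to 43.4 FPKM in Ly6cloF4/80lo and from 144 to 92.7 FPKM in Ly6cloF4/80hi. S100a9 went from 2653 to 10296 FPKM, from 96.8 to 21.9 FPKM and from 77.5 to 46.3 FPKM in the same order. The gene pair moved alike, 3.70-fold and 3.88-fold higher in the Ly6chi gate, with gate differences of 3.16 and 3.37. Both were already highest in the Ly6chi gate in normal spleen.

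Genes of granule proteins were also in this class. Ngp (Entrez 18054), a cathelicidin-related protein of secondary granules, went from 2436 to 6045 FPKM in Ly6chiF4/80lo, from 51.1 to 12.5 FPKM in Ly6cloF4/80lo and from 44.7 to 24.6 FPKM in Ly6cloF4/80hi (gate difference 2.70). Ltf (Entrez 17002), lactoferrin, the iron-binding protein of secondary granules, went from 672 to 1486 FPKM, from 12.2 to 3.36 FPKM and from 11.4 to 5.31 FPKM (gate difference 2.43). Mmp9 (Entrez 17395), the gelatinase of the last granules to form, went from 28.9 to 100 FPKM, from 14.7 to 2.70 FPKM and from 5.84 to 1.48 FPKM (gate difference 3.53). In all 3 genes the T-ALL Ly6chi library was the highest of the 6, and each T-ALL Ly6clo library was below its normal partner. Chil3 (Entrez 12655), a chitinase-like protein of neutrophils, monocytes and some macrophages, went from 630 to 1332 FPKM, from 12.8 to 5.66 FPKM and from 10.5 to 5.54 FPKM (gate difference 2.02).

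The other 2 genes of this class had low levels and were not highest in the Ly6chi gate in normal spleen. Il1r2 (Entrez 16178), a decoy receptor that binds interleukin-1 without signalling, went from 6.22 to 15.0 FPKM in Ly6chiF4/80lo, from 11.8 to 5.26 FPKM in Ly6cloF4/80lo and from 9.51 to 1.55 FPKM in Ly6cloF4/80hi (gate difference 2.69). Asprv1 (Entrez 67855), an aspartic protease of retroviral origin, went from 4.04 to 10.1 FPKM, from 17.2 to 11.2 FPKM and from 6.17 to 3.47 FPKM (gate difference 1.77). The order of the gates changed for Il1r2, from lowest to highest in the Ly6chi gate. For Asprv1 the Ly6chi gate went from the lowest level to a level between those of the Ly6clo gates.

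The promoters of 4 of these genes are shown because each holds an 8-base match to the motif TTGCNNAA, the kind of sequence bound by C/EBP factors, which act in the maturation of neutrophils. The sequences run from 250 bases before to 50 bases after the gene start, from RefSeq on GRCm38.p6, and the capitals mark the match, read on either strand. Retnlg is at chr16:48872358-48872657 on the plus strand, S100a9 at chr3:90695672-90695971 on the minus strand, Ngp at chr9:110419558-110419857 on the plus strand and Ltf at chr9:111019042-111019341 on the plus strand.
Retnlg: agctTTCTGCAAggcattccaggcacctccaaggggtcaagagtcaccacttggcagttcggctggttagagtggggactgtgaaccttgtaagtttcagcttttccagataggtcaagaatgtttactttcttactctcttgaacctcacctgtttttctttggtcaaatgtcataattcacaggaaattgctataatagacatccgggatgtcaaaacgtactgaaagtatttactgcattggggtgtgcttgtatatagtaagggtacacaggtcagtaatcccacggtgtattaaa
S100a9: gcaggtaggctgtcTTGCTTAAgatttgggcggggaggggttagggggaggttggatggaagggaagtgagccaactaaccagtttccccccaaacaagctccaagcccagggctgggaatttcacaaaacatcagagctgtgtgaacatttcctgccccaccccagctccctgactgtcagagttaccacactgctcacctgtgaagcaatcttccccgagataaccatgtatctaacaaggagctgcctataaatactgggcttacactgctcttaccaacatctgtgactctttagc
Ngp: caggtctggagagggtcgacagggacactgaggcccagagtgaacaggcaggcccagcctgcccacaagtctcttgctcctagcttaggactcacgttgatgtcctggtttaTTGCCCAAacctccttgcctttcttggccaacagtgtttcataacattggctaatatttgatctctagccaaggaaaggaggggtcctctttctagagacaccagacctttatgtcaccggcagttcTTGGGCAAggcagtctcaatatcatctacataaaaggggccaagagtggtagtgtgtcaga
Ltf: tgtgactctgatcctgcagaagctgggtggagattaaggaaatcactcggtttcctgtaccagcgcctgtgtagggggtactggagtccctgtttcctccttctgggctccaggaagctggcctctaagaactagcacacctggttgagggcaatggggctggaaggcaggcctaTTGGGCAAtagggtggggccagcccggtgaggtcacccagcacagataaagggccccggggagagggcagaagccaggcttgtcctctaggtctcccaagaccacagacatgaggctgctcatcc

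The match starts 246 bases before the gene start in Retnlg, 236 bases before in S100a9, 138 and 11 bases before in Ngp and 75 bases before in Ltf, so its position is not shared. TTGCNNAA was found in 4 of the 8 opposite, Ly6chi-higher genes that have a promoter in the table, in 11 of 38 Ly6chi-only higher genes (28.9%), in 2 of 33 Ly6chi-only lower genes (6.1%) and in 1 of 6 opposite, Ly6chi-lower genes (16.7%). It was present in 10.8% of all 32851 promoters of this length and in 10.6% of the 7779 considered genes with a promoter. Of the 11 genes, 3 are the near-identical Gm14308, Gm4724 and Gm14434. The looser TTNCNNAA, whose matches include those of the first motif, was in 6 of 8, 22 of 38, 14 of 33 and 2 of 6 genes in the same order, against 40.7% of all promoters. TGTGGT, a RUNX-type core, was in 12 of 33 Ly6chi-only lower genes (36.4%), against 16.8% of all promoters. The 12 were Cx3cr1, Ncr1, Gzma, Prf1, Klre1, Prkab2, Rarg, Tiam1, Txk, Sytl3, Uchl4 and Sfxn3. The motif was also in 2 of 8 opposite, Ly6chi-higher genes (Ltf and S100a9) and in 2 of 6 opposite, Ly6chi-lower genes (Cd160 and Qprt). It was in 4 of 38 Ly6chi-only higher genes (10.5%). CCACGT, a core of elements that respond to unfolded protein, was in 3 of 38 Ly6chi-only higher genes (7.9%), Dnajb9 and Selenos among them, against 8.3% of all promoters and 13.5% of the considered genes. The other motifs searched on both strands were its shorter form CCACG, the longer TGACGTGG, TTGCGCAA (a case of the first motif), TGTGGTTT (which extends the RUNX-type core), TCACACCT, and the overlapping pair of GAGGAAGT with AGGAAGTG. A match is a description of letters. No binding was measured, and these 11 motifs were chosen with the genes known.

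The neutrophil granule and calprotectin list has 18 measured genes, of which 9 are members by the rule and 9 are not. Of the latter 9, 5 had a gate difference of at least 1 (2.39% of all genes did) and none was at -1 or below. Over all 18 the median was 2.56 beside -0.09 for all genes, a description that includes the values the rule used. Their median changes were 1.46 in Ly6chiF4/80lo, -1.11 in Ly6cloF4/80lo and -0.42 in Ly6cloF4/80hi. The summed level went from 13817 to 45978 FPKM, from 457 to 156 FPKM and from 391 to 240 FPKM. Lcn2, the siderophore-binding lipocalin of secondary granules, went from 465 to 1768 FPKM in Ly6chiF4/80lo, from 13.6 to 4.05 FPKM in Ly6cloF4/80lo and from 8.58 to 6.57 FPKM in Ly6cloF4/80hi. It missed the rule because its change of -0.34 in Ly6cloF4/80hi fell short of -0.5. Camp, cathelicidin, was at 1339 and 3714 FPKM, 25.6 and 6.71 FPKM, and 20.1 and 14.2 FPKM, with a change of -0.47 in Ly6cloF4/80hi.

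The other 4 non-members of the list, Csf3r, Cxcr2, Padi4 and Ltb4r1, had gate differences of -0.29 to 0.51. Csf3r, which encodes the receptor for granulocyte colony-stimulating factor, was at 62.2 FPKM in the normal and 36.3 FPKM in the leukemic Ly6chiF4/80lo library. Cxcr2, the receptor that draws mature neutrophils out of the marrow, was at 23.4 and 32.6 FPKM there. Azurophil granule and progenitor genes were mostly higher in T-ALL in all 3 gates (10, 11 and 11 of 13 genes), with median changes of 1.55, 2.12 and 1.33 and a median gate difference of 0.44, which ranged from -0.19 to 0.90 over 9 alternative settings of the azurophil granule and myeloid progenitor list. Mpo, myeloperoxidase, illustrates this, at 101 and 745 FPKM in Ly6chiF4/80lo, 12.0 and 149 FPKM in Ly6cloF4/80lo and 5.22 and 32.6 FPKM in Ly6cloF4/80hi. Cebpe, the C/EBP factor of secondary granule genes, was at 18.4 and 55.7 FPKM in the Ly6chi gate, 0.73 and 2.26 FPKM in Ly6cloF4/80lo and 0.54 and 0.76 FPKM in Ly6cloF4/80hi. These genes of neutrophils at several stages moved in a gate labelled as macrophages. Whether their levels come from neutrophils in the gate was not tested.

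**Figure D2:**
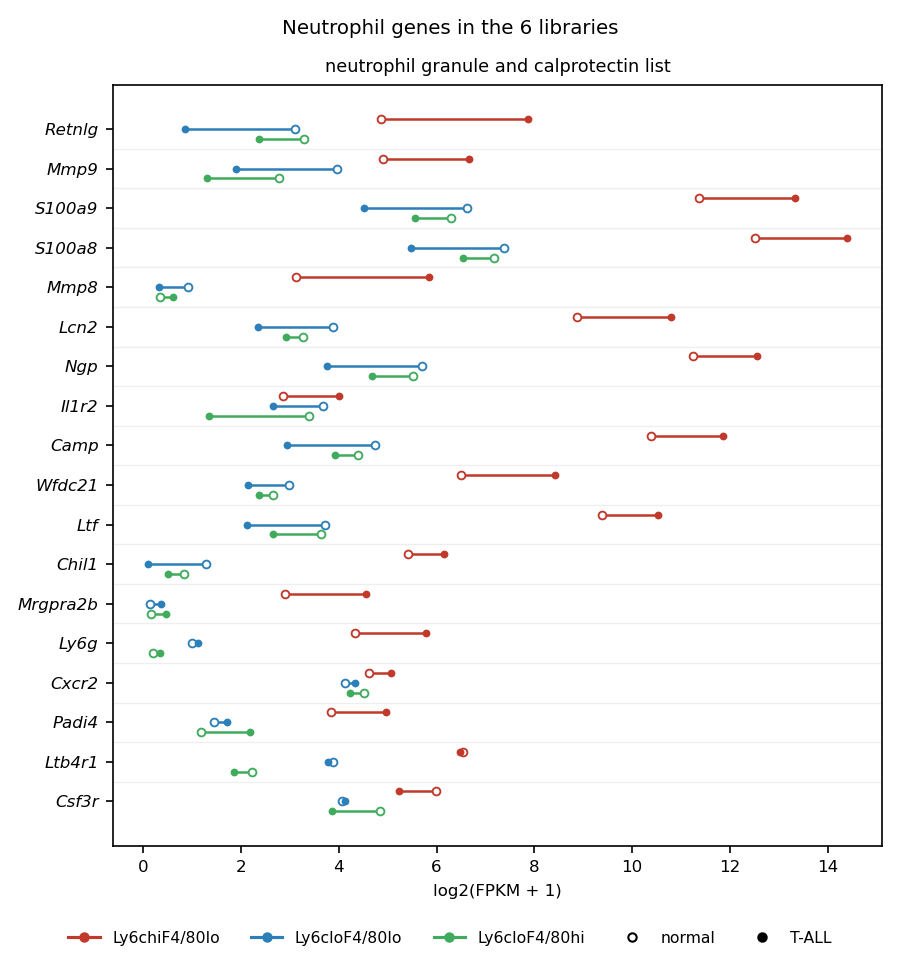
Levels of the 18 measured neutrophil granule and calprotectin genes in each of the 6 libraries, on a log2(FPKM + 1) scale. Open circles are normal, filled circles T-ALL, lines join the 2 states of a gate, and colours are gates. S100a8 in the Ly6chi gate went from 5836 to 21584 FPKM while both Ly6clo gates moved left, and Csf3r and Ltb4r1 did not share the pattern.

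Among the 46 Ly6chi-only higher genes, several more are neutrophil genes, a group put together after their values were seen. Ly6g, the surface antigen that defines mouse neutrophils, went from 19.2 to 53.9 FPKM in Ly6chiF4/80lo, and was at 0.99 and 1.18 FPKM in Ly6cloF4/80lo and at 0.15 and 0.26 FPKM in Ly6cloF4/80hi (gate difference 1.31). Olfm4, olfactomedin 4 of a neutrophil subset's granules, went from 5.71 to 26.9 FPKM in the Ly6chi gate. It was not listed in either Ly6cloF4/80lo library, which counts as 0, and was at 0.08 and 0.21 FPKM in Ly6cloF4/80hi (gate difference 1.97). Itgb2l, a neutrophil integrin chain, went from 15.9 to 45.6 FPKM and stayed between 0.18 and 0.34 FPKM in the 4 Ly6clo libraries (gate difference 1.57). Mrgpra2b, a G protein-coupled receptor of neutrophils, went from 6.48 to 22.6 FPKM, with 0.10 to 0.37 FPKM in the Ly6clo libraries (gate difference 1.39).

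For these 4 genes the Ly6clo gates held almost no transcript in either state, which left little room for a fall on this scale. Slfn4, a schlafen family gene of myeloid cells, was similar, with 10.4 and 28.6 FPKM in the Ly6chi gate and 0.94 to 2.04 FPKM in the Ly6clo libraries (gate difference 1.25). The stefin A genes encode inhibitors of cysteine proteases. Stfa1 was not listed in 5 libraries and was at 6.97 FPKM in T-ALL Ly6chiF4/80lo. Stfa2l1 was at 1.76 and 10.0 FPKM in the Ly6chi gate, at 0.33 and 0.34 FPKM in the normal Ly6clo libraries and not listed in the T-ALL Ly6clo libraries. Stefin A genes are near-identical copies, so reads can be split between them. Slpi, a secreted inhibitor of neutrophil elastase, had a gate difference of 3.17 without being a member. It went from 157 to 3449 FPKM in Ly6chiF4/80lo and from 67.0 to 489 FPKM in Ly6cloF4/80lo, and from 1109 to 911 FPKM in Ly6cloF4/80hi.

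Some Ly6chi-only higher genes encode proteins of the endoplasmic reticulum and Golgi, gathered here after their values were seen and not from a list. Dnajb9, the 1 member in the endoplasmic reticulum chaperone list, is a co-chaperone induced by unfolded protein. It went from 56.5 to 123 FPKM in Ly6chiF4/80lo, from 55.8 to 39.4 FPKM in Ly6cloF4/80lo and from 54.1 to 41.9 FPKM in Ly6cloF4/80hi (gate difference 1.54). The 3 normal libraries lay between 54.1 and 56.5 FPKM, and only the T-ALL Ly6chi library was above that range. Rrbp1, which binds ribosomes to the reticulum, went from 39.8 to 87.6 FPKM in the Ly6chi gate and was between 32.3 and 48.5 FPKM in the Ly6clo libraries (gate difference 1.21). Tpst1, a tyrosine sulfotransferase of the Golgi, went from 19.4 to 70.7 FPKM and was between 17.8 and 24.4 FPKM in the Ly6clo libraries (gate difference 1.62). St6gal1, a sialyltransferase of the Golgi, went from 50.5 to 106 FPKM, from 55.8 to 41.5 FPKM and from 40.9 to 36.4 FPKM (gate difference 1.34).

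Other genes of the same compartments fell outside the naming rule. Selenos, of the pathway that removes misfolded protein, went from 99.1 to 225 FPKM in Ly6chiF4/80lo and stayed between 63.7 and 85.8 FPKM in the Ly6clo libraries. Fut8, the core fucosyltransferase, went from 59.7 to 126 FPKM with 45.9 to 59.5 FPKM in the Ly6clo libraries. Sil1, a nucleotide exchange factor for the chaperone Hspa5, went from 29.0 to 59.98 FPKM with 17.98 to 37.8 FPKM in the Ly6clo libraries. The gate differences of Selenos, Fut8 and Sil1 were 1.13, 1.097 and 1.13. In each of the 3 genes the T-ALL Ly6chi library was the highest of the 6.

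The chaperone list as a whole was higher in T-ALL in the Ly6chi gate, with smaller changes elsewhere. All 16 genes were above 0 in Ly6chiF4/80lo, 13 of them by at least 2-fold, against 2 in Ly6cloF4/80lo and 1 in Ly6cloF4/80hi. Over all 9537 genes, 7.0%, 5.78% and 10.5% were at least 2-fold higher in these gates. The median changes were 1.21, 0.61 and 0.28 and the median gate difference was 0.74, beside -0.09 for all genes. A gate difference of at least 1 (2.39% of all genes) was reached by Dnajb9, Sdf2l1, Herpud1 and Manf, and only Dnajb9 met the rule. Hspa5, the main chaperone of the compartment, was at 497 and 1122 FPKM in the Ly6chi gate, 342 and 469 FPKM in Ly6cloF4/80lo and 419 and 472 FPKM in Ly6cloF4/80hi. Plasma cell genes, which depend on the same compartment for antibody secretion, moved beside them. Their summed level over 10 genes went from 6336 to 16019 FPKM in Ly6chiF4/80lo, from 967 to 1994 FPKM in Ly6cloF4/80lo and from 580 to 1895 FPKM in Ly6cloF4/80hi. The median gate difference of that list was 0.48, and 1 of 10 genes reached 1. Jchain, the joining chain of secreted antibodies, was at 4617 and 10138 FPKM in the Ly6chi gate with a gate difference of -0.64. The part of plasma cells in the chaperone values was not tested.

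**Figure D3:**
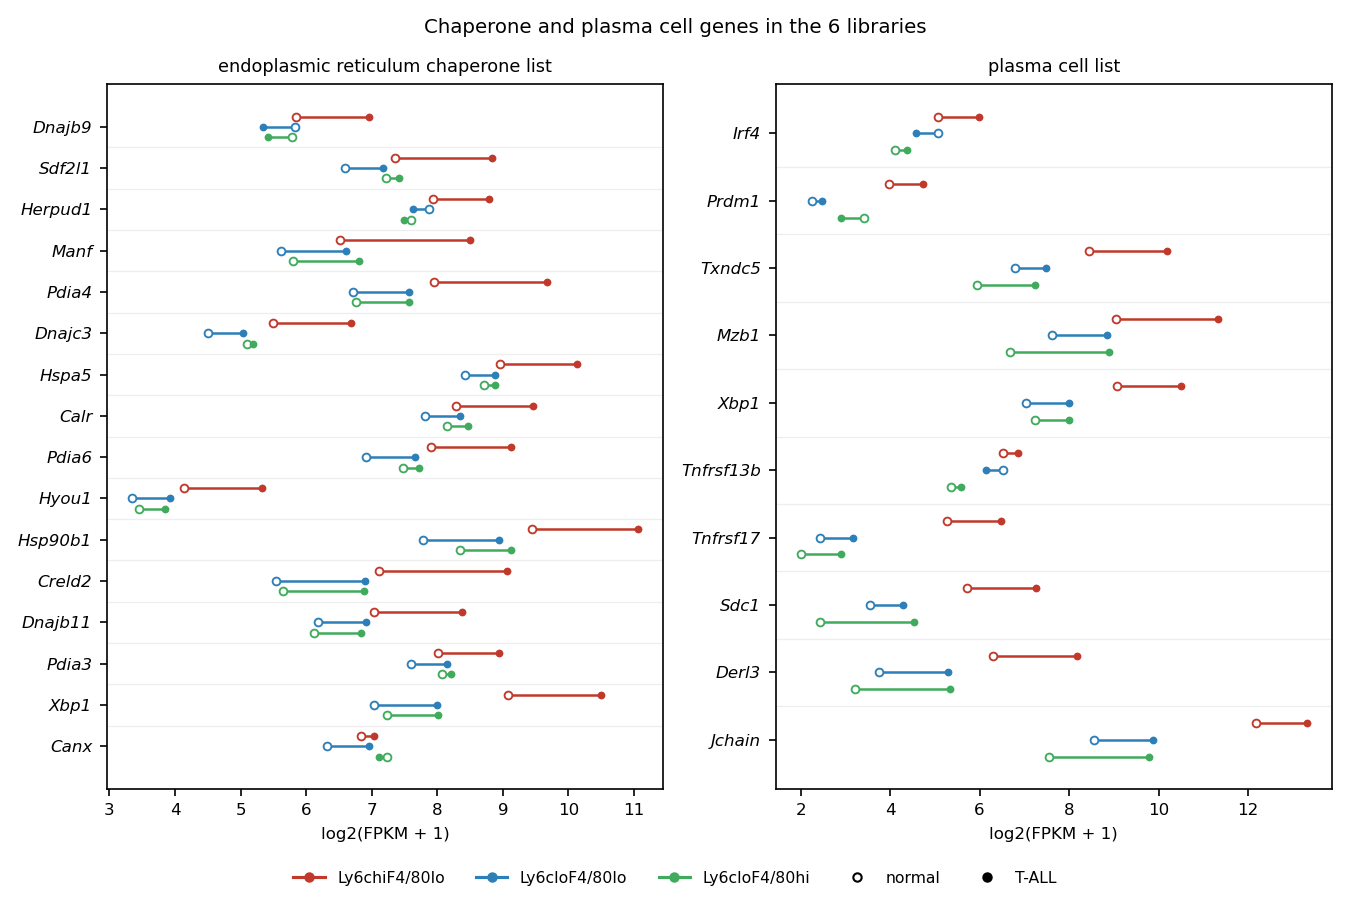
Levels of 16 endoplasmic reticulum chaperone genes (left) and 10 plasma cell genes (right) in each of the 6 libraries, on a log2(FPKM + 1) scale, with open circles for normal and filled circles for T-ALL. Dnajb9 and Herpud1 moved right in the Ly6chi gate and left in both Ly6clo gates, while Jchain moved right in all 3.

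The remaining Ly6chi-only higher genes had mixed roles. Epcam, an epithelial adhesion protein, went from 7.28 to 24.6 FPKM in Ly6chiF4/80lo, from 7.18 to 5.71 FPKM in Ly6cloF4/80lo and from 2.76 to 3.61 FPKM in Ly6cloF4/80hi (gate difference 1.62). Slc17a9, which loads nucleotides into vesicles, went from 10.5 to 24.9 FPKM with 6.81 to 7.93 FPKM in the Ly6clo libraries. Gstt2, a glutathione transferase, went from 6.67 to 22.8 FPKM with 11.6 to 15.1 FPKM in the Ly6clo libraries. Rilpl2, a Rab-binding protein, went from 33.1 to 81.7 FPKM with 41.5 to 49.4 FPKM in the Ly6clo libraries. Its T-ALL Ly6chi library lay above the other 5, as did those of Epcam, Slc17a9 and Gstt2. H2bc4, a replication-linked histone H2B gene, was at 19.0 and 39.6 FPKM in the Ly6chi gate, 30.5 and 23.7 FPKM in Ly6cloF4/80lo and 60.3 and 57.4 FPKM in Ly6cloF4/80hi. It was 1 of 4 Ly6chi-only higher genes (0.482% of all genes) among the 36 measured clustered histones. Of the 36, 9 had a gate difference of at least 1 (2.39% of all genes) and 2 were at -1 or below (4.42%). The summed level of the 36 was higher in T-ALL in every gate (692 and 2785 FPKM, 1033 and 2513 FPKM, 761 and 3285 FPKM).

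The largest gate difference of any member, 4.78, belonged to Tmem254c and its value is uncertain. Tmem254c went from 0.02 to 27.0 FPKM in the Ly6chi gate, while its near-identical neighbour Tmem254b was at 21.7 FPKM in normal and not listed in T-ALL. Their summed level was 21.7 and 27.0 FPKM there, 21.4 and 28.3 FPKM in Ly6cloF4/80lo and 13.95 and 20.3 FPKM in Ly6cloF4/80hi, and the gate difference of the sum was -0.15. Their reads can be assigned to either copy. Gm14308, Gm4724 and Gm14434, zinc finger gene models, had values within 0.01 FPKM of each other in every library and share their reads, so they count as 1 signal. Of the 111 members, 49 stayed under 20 FPKM in every library, and 8 were not listed in at least 1 file and were taken as 0 there. 1 member, lower in the Ly6chi gate, is known only by its identifier and is not named.

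The 49 Ly6chi-only lower genes included many genes of natural killer and other cytotoxic lymphocytes. Il2rb, the beta chain of the interleukin-2 and interleukin-15 receptors, went from 93.4 to 37.3 FPKM in Ly6chiF4/80lo. In Ly6cloF4/80lo it was at 42.4 and 57.9 FPKM and in Ly6cloF4/80hi at 19.5 and 27.4 FPKM (gate difference -1.76). Ncr1, the activating receptor NKp46 of natural killer cells, went from 39.6 to 14.1 FPKM, with 17.1 and 21.8 FPKM and 9.91 and 9.20 FPKM in the Ly6clo gates (gate difference -1.54). The Ly6chi gate held the most Il2rb and Ncr1 in normal spleen, and in T-ALL the Ly6cloF4/80lo gate did. Gzma, a granzyme of cytotoxic granules, went from 301 to 141 FPKM in the Ly6chi gate, with 120 and 114 FPKM and 49.9 and 69.0 FPKM in the Ly6clo gates (gate difference -1.28). Prf1, perforin, the pore-forming protein released with it, went from 41.8 to 20.4 FPKM, with 14.3 and 18.3 FPKM and 7.52 and 8.71 FPKM (gate difference -1.26).

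Ccl5, a chemokine of activated cytotoxic cells, went from 309 to 138 FPKM in the Ly6chi gate, with 371 and 312 FPKM in Ly6cloF4/80lo and 123 and 160 FPKM in Ly6cloF4/80hi (gate difference -1.22). Klre1, a killer lectin receptor, went from 30.1 to 9.97 FPKM, with 14.6 and 17.1 FPKM and 7.86 and 8.71 FPKM (gate difference -1.68). Its relatives Klra9, Klra7 and Klra23, of the Ly49 family, went from 27.0 to 10.9 FPKM, from 24.2 to 9.77 FPKM and from 21.8 to 7.20 FPKM in the Ly6chi gate. Ly49 genes are near-identical, so their single values are uncertain. Over the 19 measured killer lectin receptor genes, all 19 were below 0 in the Ly6chi gate, 14 by at least 2-fold, and 11 had a gate difference of -1 or below. Over all genes the shares were 4.29% and 4.42%, and 4 of the 19 are members. Their median changes were -1.27, -0.19 and -0.27, and the summed level went from 526 to 217 FPKM, from 386 to 278 FPKM and from 210 to 167 FPKM. Cd7, a surface protein of natural killer and T cells, went from 118 to 39.1 FPKM, with 194 and 164 FPKM and 73.7 and 71.4 FPKM in the Ly6clo gates (gate difference -1.43).

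The natural killer and cytotoxic list held 14 measured genes. Of these, 12 had a gate difference of -1 or below (4.42% of all genes did) and none reached 1 (2.39% of all genes did). The Ly6chi-only lower rule was met by 6 (0.514% of all genes), so the list's values include some the rule used. Its median gate difference was -1.27, from median changes of -1.21, 0.27 and 0.17. Its summed level was 1240 FPKM in normal and 570 FPKM in T-ALL Ly6chiF4/80lo, 845 and 857 FPKM in Ly6cloF4/80lo and 358 and 427 FPKM in Ly6cloF4/80hi. The Ly6chi gate was thus highest in normal and Ly6cloF4/80lo in T-ALL. Not all members followed. Gzmb and Xcl1, a granzyme and a chemokine of activated cells, were higher in both Ly6clo gates and changed by -0.31 and 0.24 in the Ly6chi gate. Tbx21, a transcription factor of cytotoxic and helper cells, had a gate difference of -0.33. T cell genes were also mostly lower in the Ly6chi gate (15 of 17), but 15 of 17 were higher in Ly6cloF4/80hi. Their median gate difference was -0.93, made of median changes of -0.58 in Ly6chiF4/80lo, -0.34 in Ly6cloF4/80lo and 0.85 in Ly6cloF4/80hi. It was below 0 in 16 of the 17 genes and at -1 or below in 7 (4.42% of all genes). None of the 17 met a Ly6chi-only rule (0.482% of all genes met the higher and 0.514% the lower one). Over the alternatives the median of the T cell list ranged from -1.37 to -0.13. Cytotoxic genes were measured in gates labelled as macrophages, and the part of natural killer cells in these values was not tested.

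Genes of patrolling monocytes were also lower in the Ly6chi gate. Cx3cr1, the receptor for fractalkine that these cells carry at a high level, went from 198 to 87.9 FPKM in Ly6chiF4/80lo, from 40.8 to 53.1 FPKM in Ly6cloF4/80lo and from 12.1 to 14.5 FPKM in Ly6cloF4/80hi (gate difference -1.47). It was the only Ly6chi-only gene among the 18 patrolling monocyte genes (0.514% of all genes were Ly6chi-only lower). Of the 18, 16 had a gate difference below 0 and 6 were at -1 or below. Of all 9537 genes, 41.6% lay above 0 and 4.42% were at -1 or below. The list's median gate difference was -0.81, from median changes of -0.64, 0.47 and 0.33. Ace, angiotensin-converting enzyme, had the lowest value of the list at -2.11, with 301 and 109 FPKM in the Ly6chi gate, 47.8 and 66.0 FPKM in Ly6cloF4/80lo and 7.06 and 13.4 FPKM in Ly6cloF4/80hi. It narrowly missed the opposite rule, since its Ly6cloF4/80lo change was 0.46. Spn, the sialophorin CD43, was at 97.4 and 94.3 FPKM in the Ly6chi gate and higher in both Ly6clo gates, at 38.8 and 85.0 FPKM and at 6.79 and 28.5 FPKM. Nr4a1, the nuclear receptor these monocytes depend on, was lower in all 3 gates, with changes of -1.17, -0.94 and -1.37, and had a gate difference of -0.02.

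**Figure D4:**
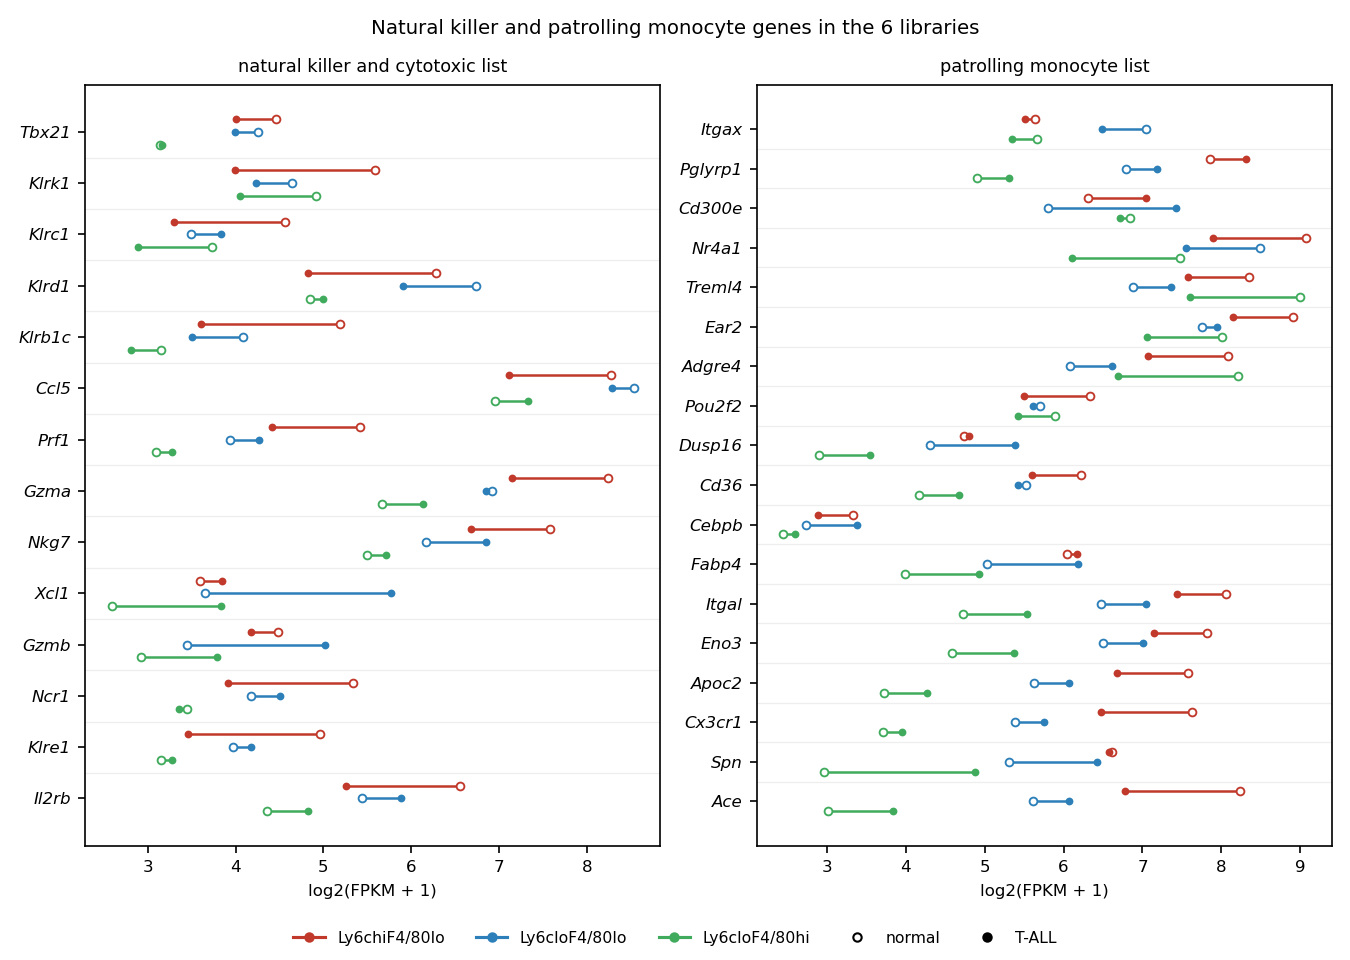
Levels of 14 natural killer and cytotoxic genes (left) and 18 patrolling monocyte genes (right) in each of the 6 libraries, on a log2(FPKM + 1) scale, with open circles for normal and filled circles for T-ALL. In the Ly6chi gate 13 of the 14 cytotoxic genes and 14 of the 18 patrolling genes moved left, while 8 and 14 of them moved right in Ly6cloF4/80lo.

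Classical monocyte genes did not move as 1 group. Of 17 measured genes, 3 had a gate difference of at least 1 (2.39% of all genes did). Another 5 were at -1 or below (4.42% of all genes), and the list median was -0.63. In all, 13 of the 17 had a gate difference below 0, while 41.6% of all genes lay above 0. In the Ly6chi gate itself 9 of the 17 were higher and 8 lower in T-ALL. The 3 genes with a gate difference of at least 1 were Ly6c2, Chil3 (2.02) and Cd177 (1.84). Chil3 and Cd177 were higher in the Ly6chi gate and lower in both Ly6clo gates, the same directions as the medians of the neutrophil granule and calprotectin list. Ly6c2 itself was 2.92-fold higher in the Ly6chi gate, with 19.9 and 21.4 FPKM in Ly6cloF4/80lo and 11.8 and 19.8 FPKM in Ly6cloF4/80hi, a gate difference of 1.14. Its neighbour Ly6c1 was at 4.85 and 8.58 FPKM in the Ly6chi gate, at 0.95 and 0.49 FPKM in Ly6cloF4/80lo and at 0.75 and 1.04 FPKM in Ly6cloF4/80hi. Ccr2, the chemokine receptor that brings classical monocytes out of the marrow, went the other way from Ly6c2, from 167 to 37.4 FPKM in the Ly6chi gate. It was also lower in the Ly6clo gates, at 21.3 and 10.0 FPKM and at 7.88 and 4.73 FPKM (gate difference -1.31). F13a1, the clotting factor XIII A chain of monocytes, went from 35.6 to 12.3 FPKM in the Ly6chi gate and stayed under 2 FPKM elsewhere. Fn1, fibronectin, went from 14.7 to 5.95 FPKM there and from 2.42 to 10.7 FPKM in Ly6cloF4/80hi. Sirpb1c, a signal-regulatory receptor, was the list's 1 Ly6chi-only lower gene, at 179 and 86.2 FPKM, 63.7 and 53.2 FPKM, and 29.4 and 35.7 FPKM. It belongs to a family of near-identical genes.

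The other Ly6chi-only lower genes named by level were of varied kinds. Nxpe4 went from 83.0 to 28.6 FPKM in Ly6chiF4/80lo, with 14.6 to 29.2 FPKM in the Ly6clo libraries (gate difference -1.73). Krt80, a keratin, went from 105 to 33.8 FPKM, with 47.8 and 40.8 FPKM and 8.88 and 9.19 FPKM (gate difference -1.52). In both genes the normal Ly6chi library was the highest of the 6. In T-ALL the Ly6chi gate was at 28.6 and 33.8 FPKM, beside 29.2 and 40.8 FPKM in Ly6cloF4/80lo. Mcub, an inhibitory subunit of the mitochondrial calcium channel, went from 55.8 to 18.8 FPKM with 8.52 to 12.5 FPKM in the Ly6clo libraries. Arhgef37, a guanine nucleotide exchange factor, went from 21.9 to 5.70 FPKM with at most 1.68 FPKM there.

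The 7 opposite genes that were lower in the Ly6chi gate had all been highest there in normal spleen. Emilin2 (Entrez 246707), a matrix glycoprotein, went from 113 to 41.5 FPKM in Ly6chiF4/80lo, from 20.6 to 36.1 FPKM in Ly6cloF4/80lo and from 4.99 to 26.3 FPKM in Ly6cloF4/80hi (gate difference -2.91). The 3 gates thus ran from 4.99 to 113 FPKM in normal and from 26.3 to 41.5 FPKM in T-ALL. Nupr1 (Entrez 56312), a small nuclear protein induced by stress, went from 192 to 71.7 FPKM, from 33.9 to 72.6 FPKM and from 8.61 to 18.7 FPKM (gate difference -2.46). S1pr5 (Entrez 94226), the sphingosine 1-phosphate receptor by which natural killer cells and patrolling monocytes leave the marrow, went from 124 to 50.4 FPKM, from 36.2 to 65.3 FPKM and from 6.08 to 11.1 FPKM (gate difference -2.09). In T-ALL the Ly6cloF4/80lo gate was highest for S1pr5, and for Nupr1 it was level with the Ly6chi gate.

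The other 4 had lower levels. Cd160 (Entrez 54215), a receptor of natural killer and T cells, went from 4.34 to 1.38 FPKM, from 2.98 to 7.20 FPKM and from 1.26 to 2.58 FPKM in the same order of gates (gate difference -2.02). Tgfbr3 (Entrez 21814), betaglycan, a co-receptor for TGF-beta, went from 6.89 to 2.70 FPKM, from 3.34 to 5.30 FPKM and from 0.56 to 2.44 FPKM (gate difference -1.93). 3110082I17Rik (Entrez 73212), of unknown function, went from 30.9 to 14.7 FPKM, from 10.8 to 20.2 FPKM and from 9.96 to 16.2 FPKM (gate difference -1.78). Qprt (Entrez 67375), an enzyme that makes a precursor of NAD from quinolinate, went from 5.43 to 2.14 FPKM, from 2.35 to 4.02 FPKM and from 3.75 to 6.12 FPKM (gate difference -1.62). In T-ALL the Ly6chi library was the lowest of the 3 gates for Cd160, 3110082I17Rik and Qprt. None of the 7 is a neutrophil granule gene.

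The gate in which the members were highest changed with state, which the rule favours. Among the 49 Ly6chi-only lower genes the Ly6chi gate was highest for 44 in normal and for 20 in T-ALL, and their median level there was 17.5 and 5.70 FPKM. In Ly6cloF4/80lo the medians were 7.41 and 7.88 FPKM. Among the 46 Ly6chi-only higher genes it was highest for 21 in normal and 39 in T-ALL, with median levels of 8.18 and 23.8 FPKM. The 7 opposite, Ly6chi-lower genes went from 7 to 1. The members just inside and just outside the limits had nearly equal values. Nudt2 was the last Ly6chi-only higher gene at a gate difference of 1.002, and Qpctl was left out at 0.997. Sfxn3 was in at -1.007, and BC028528 was left out at -0.999. Among opposite genes the Ly6chi change decided. Chil3 was in at 1.08 and Rhob out at 0.973, and 3110082I17Rik was in at -1.027 and Ip6k3 out at -0.969.

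Large gate differences also arose where the Ly6clo gates moved more than the Ly6chi gate. Over all genes the share at -1 or below was 4.42%, and at 1 or above 2.39%. All 19 measured erythroid genes had a gate difference of -1 or below, with a median of -2.53 from median changes of 0.39 in Ly6chiF4/80lo and 2.89 and 3.40 in the Ly6clo gates. Hba-a1, an alpha globin, was at 461 and 399 FPKM in the Ly6chi gate, 265 and 2579 FPKM in Ly6cloF4/80lo and 2438 and 18610 FPKM in Ly6cloF4/80hi. Basophil and mast cell genes had a median gate difference of -1.16, with 6 of 8 at -1 or below, and median changes of 0.33, 1.71 and 1.31. The immediate early list was lower in T-ALL in every gate, with median changes of -0.58, -0.96 and -1.29 and a median gate difference of 0.24, and 5 of its 21 genes reached 1. Fos, a subunit of the AP-1 factor and 1 of the 5, was at 454 and 545 FPKM in the Ly6chi gate, 414 and 116 FPKM in Ly6cloF4/80lo and 432 and 158 FPKM in Ly6cloF4/80hi, a gate difference of 1.90. No gene of the erythroid, basophil or immediate early lists was a member. Members were 111 of all 9537 genes, so their absence from lists of 19, 8 and 21 genes says little.

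**Figure D5:**
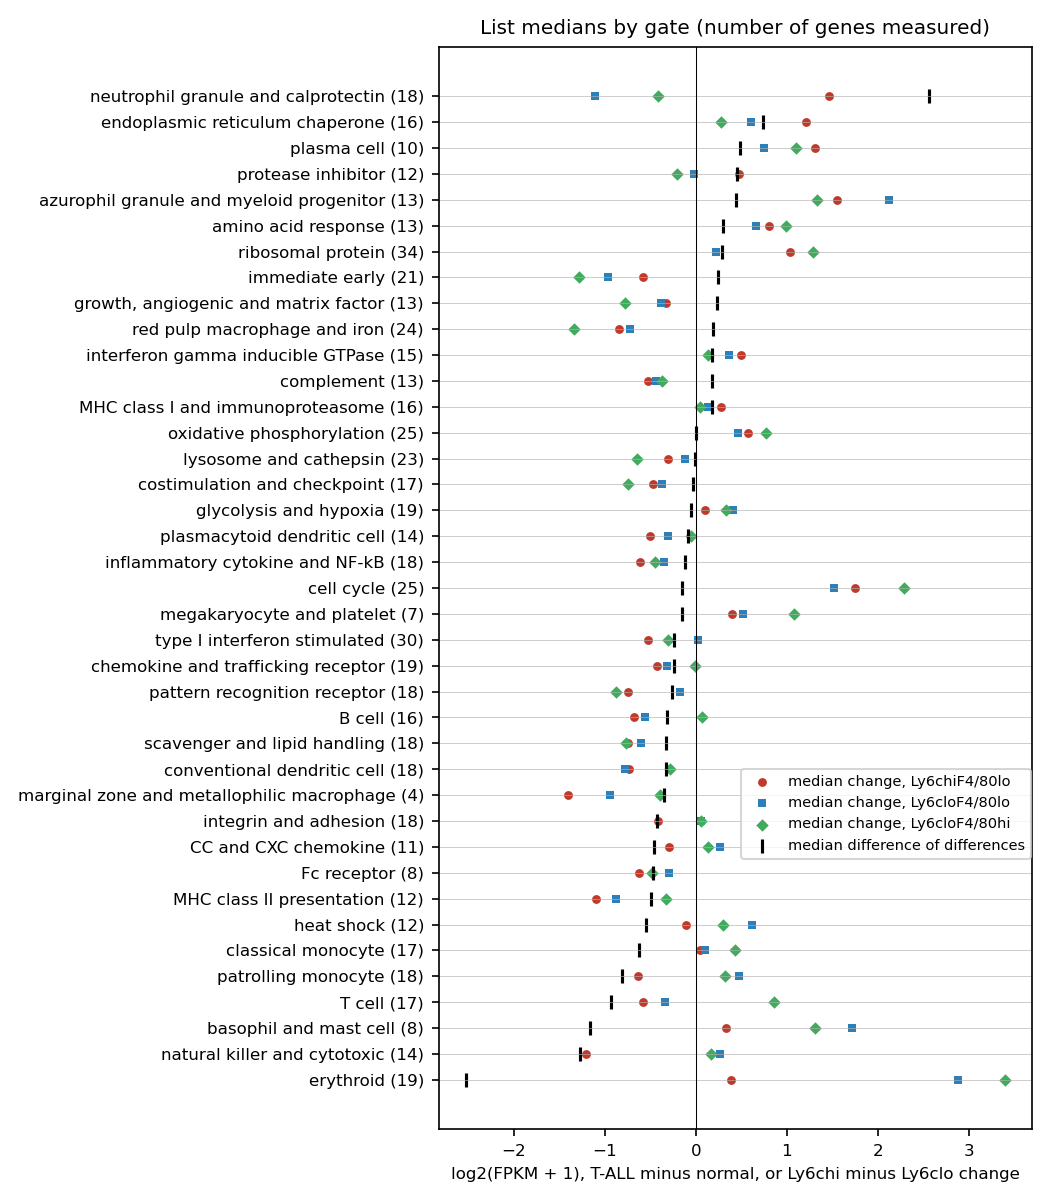
For each of 39 gene lists, the median T-ALL minus normal change in each gate (coloured symbols) and the median gate difference (black bar), in log2(FPKM + 1), with the number of measured genes in parentheses. The neutrophil granule list is at 2.56, natural killer and cytotoxic genes at -1.27 and erythroid genes at -2.53, the last with a Ly6chi median of 0.39.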

How the data were processed

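RNA from 3 sorted spleen gates in 2 states was sequenced on an Illumina HiSeq instrument after column extraction of RNA (per the labels). Values were deposited as FPKM, and the submitters' processing notes name Bowtie2 2.2.5 and RSEM as the authors' tools. For the build, the annotation and the version of RSEM the entry is: not given in the sources used here. FPKM depends on the rest of the library, so a few very abundant genes lower all others. The files give Entrez identifiers, of which 16017 of 16058 were matched to a symbol in a RefSeq table of GRCm38.p6, used for names.

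Genes absent from a file counted as 0, and a pseudocount of 1 was added before log2, which understates the change of low genes. Classes were formed from these changes, as given at the head of the results. No test was made, because each gate and state has 1 library. Depth came from the spacing of low FPKM values, with GENCODE M21 transcript lengths less a cut of 25 to 50 bases, and was checked on simulated data, as was the classification. The simulated counts held counting noise only, so these checks do not cover differences between animals. The members, the 39 gene lists (589 distinct genes measured, 15 of the lists for cell types) and the motifs were chosen with earlier results of these data known, so no direction they show is independent evidence. Genes named by rule were Ly6c1, Ly6c2 and Adgre1, up to 15 of largest gate difference per class with at least 20 FPKM in 1 library, every list gene in a class, and up to 4 genes per list of largest gate difference. Immunoglobulin and T cell receptor segments were skipped. Some genes that the rule picks are not reported here. Others are named as examples or contrasts, chosen after their values were seen. In all, 13 alternatives were tried. Python 3.11.15, numpy 2.4.6, pandas 2.3.3 and matplotlib 3.10.9 were used.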

Additional observations from a re-analysis of the deposited data

Results flagged for a closer look

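The 16 opposite genes stand out because the Ly6chi library of T-ALL moved one way and both Ly6clo libraries the other. These differences were not tested, since each gate and state has 1 library. Among genes higher in the Ly6chi gate, the gate difference in log2(FPKM + 1) was 4.60 for Retnlg, 3.53 for Mmp9, 3.37 for S100a9, 3.16 for S100a8, 2.70 for Ngp, 2.69 for Il1r2, 2.43 for Ltf, 2.02 for Chil3 and 1.77 for Asprv1. Among genes lower there it was -2.91 for Emilin2, -2.46 for Nupr1, -2.09 for S1pr5, -2.02 for Cd160, -1.93 for Tgfbr3, -1.78 for 3110082I17Rik and -1.62 for Qprt.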

How the results depend on the processing

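Of the 13 alternatives, 9 apply to single genes and lists and the others only to the class limits. Under those 9 no named gene or list with a gate difference of at least 1 in size changed sign. Smaller values did, such as those of the azurophil granule and myeloid progenitor list (-0.19 to 0.90) and Adgre1 (-0.65 to 0.31). Gene values moved past the set margin in 286 of 2144 comparisons and list values in 30 of 351. The counts of members depended on the limits, in the order Ly6chi-only higher (46), Ly6chi-only lower (49), opposite with Ly6chi higher (9) and opposite with Ly6chi lower (7), then gate differences of at least 1 (228) and at most -1 (422).

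With a 1.5-fold threshold the Ly6chi-only counts were 201 and 258, opposite Ly6chi-lower 23, and the gate differences 796 and 1155. With a 3-fold threshold all 6 were 13, 5, 4, 0, 61 and 154. A limit of 0.3 for the Ly6clo gates (at least 1 for opposite) gave 23, 27, 2 and 1, and a limit of 0.8 gave 83 and 81 Ly6chi-only genes. Against Ly6cloF4/80lo alone the first 4 counts were 138, 107, 26 and 22. Against Ly6cloF4/80hi alone they were 85, 94, 19 and 18, with 370 gate differences of at least 1. Requiring 20 FPKM gave 28 and 23 Ly6chi-only genes, 4 opposite Ly6chi-lower, and 132 and 229. A pseudocount of 0.1 gave 15 and 15 opposite genes, and one of 5 gave 3 opposite Ly6chi-lower genes with 127 and 224 gate differences. The remaining counts under these settings stayed within 1.5 times.

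Of the 111 members, 96 kept their class after median-ratio rescaling, 91 after quantile normalization, 89 with a pseudocount of 0.1, 55 with one of 5, 103 among genes listed in all 6 files and 22 with a 3-fold threshold. Depth limits genes of low level most. Among members the counting error of the gate difference reached 0.67. No library could be left out, because each gate and state has only 1.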
